A study of Mus musculus with 8 samples.

Results

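Calcium handling in the molar was followed through 10 genes, chosen by name for their roles in mineralising cells. Earlier results of these data were known when they were chosen. Calb1 and S100g encode calbindins, which bind calcium in the cytosol. Vdr and Casr encode the vitamin D receptor and the calcium-sensing receptor. Trpv6, Trpm7, Stim1 and Orai1 belong to calcium entry, and Atp2b1 and Slc8a1 to calcium extrusion. Each symbol matched 1 Ensembl identifier, so the members were 10 of the 43629 genes counted, and 9 of the 10 passed the filter on low counts. S100g was the gene that did not pass.

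RNA was sequenced from lower molars of mouse embryos at E18.5, the left and right teeth of an embryo pooled into 1 library. Control embryos (n = 4, J3, J5, J6 and J7) carried Jagged1 fl/fl, that is 2 floxed alleles of the Notch ligand Jagged1, and no Cre recombinase is named for them. The study's text calls them wild-type littermates. Mutant embryos (n = 4, K14J26, K14J28, K14J29 and K14J30) carried K14:cre together with Jagged1 fl/fl, and the keratin 14 promoter drives Cre in epithelium, so the deletion is aimed at the epithelium and not at the dental mesenchyme. No other treatment is named for either group. Sex and litter are not given in the labels.

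Ameloblasts are the epithelial cells that secrete enamel, and odontoblasts are the mesenchymal cells that secrete dentin beneath them. Both move calcium from their basal side towards a mineralising matrix. Calcium enters through channels of the plasma membrane, is held low in the cytosol by binding proteins and by uptake into the endoplasmic reticulum, and leaves through calcium pumps and exchangers. Vitamin D signalling is known to raise several of these genes in other calcium-transporting epithelia.

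The libraries held between 17327224 and 28613574 counts in Control and between 24692128 and 29792467 in Mutant, so 3 counts were worth 0.0998 to 0.166 CPM (counts scaled to library size). Jag1, which encodes the Jagged1 protein, lay between 95.2 and 104 CPM in Control and between 34.0 and 57.1 CPM in Mutant, with a log2 fold change of -1.19 ± 0.14 (SE) and an adjusted p = 0.00517. The labels therefore matched the level of the targeted gene in all 8 embryos. Xist, the transcript of the inactive X chromosome, reached 1928 CPM in Mutant embryo K14J28, 1467 CPM in Mutant embryo K14J29 and at most 1.09 CPM elsewhere. Both embryos with high Xist were Mutant, so by this transcript sex was not balanced between the groups. Summed skeletal muscle markers reached 399 CPM in J6 and 197 CPM in J7, against 5.04 to 18.7 CPM in the other 6. The scaling factor of K14J26 was 0.843, the lowest of the 8 libraries.

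Of the 9 tested members, 4 rose in Mutant and 0 fell at an adjusted p under 0.05: Calb1, Trpm7, Atp2b1 and Vdr. Among all 17129 genes tested, 16.1% were called, 9.52% higher and 6.61% lower. At an unadjusted p under 0.05, 6 members were higher and 0 lower, against 19.1% and 15.7% of all genes tested. DESeq2 called 5 members higher and 0 lower, against 13.1% and 10% of all genes tested. The median log2 fold change of the 9 members was 0.79, against 0.01 for all genes tested. Groups did not overlap for 4 of the 9, Calb1, Trpv6, Trpm7 and Atp2b1, where 24.2% of all genes tested had groups that did not overlap and 12.6% had the Mutant embryos above. The study's methods give an unadjusted p and a fold change threshold without naming its scale. Read as an unadjusted p of 0.05 or less with a log2 ratio of 0.5 or more, 5 members were higher and 0 lower, against 8.33% and 5.85% of all genes tested, 14.2% in all. Trpv6, Stim1, Orai1, Casr and Slc8a1 did not reach an adjusted p under 0.05 by edgeR, Trpv6 being nearest at 0.0534. In whole teeth, a change in the number of cells of a type and a change in RNA per cell cannot be told apart. No value here belongs to ameloblasts or odontoblasts alone.

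**Figure D1:**
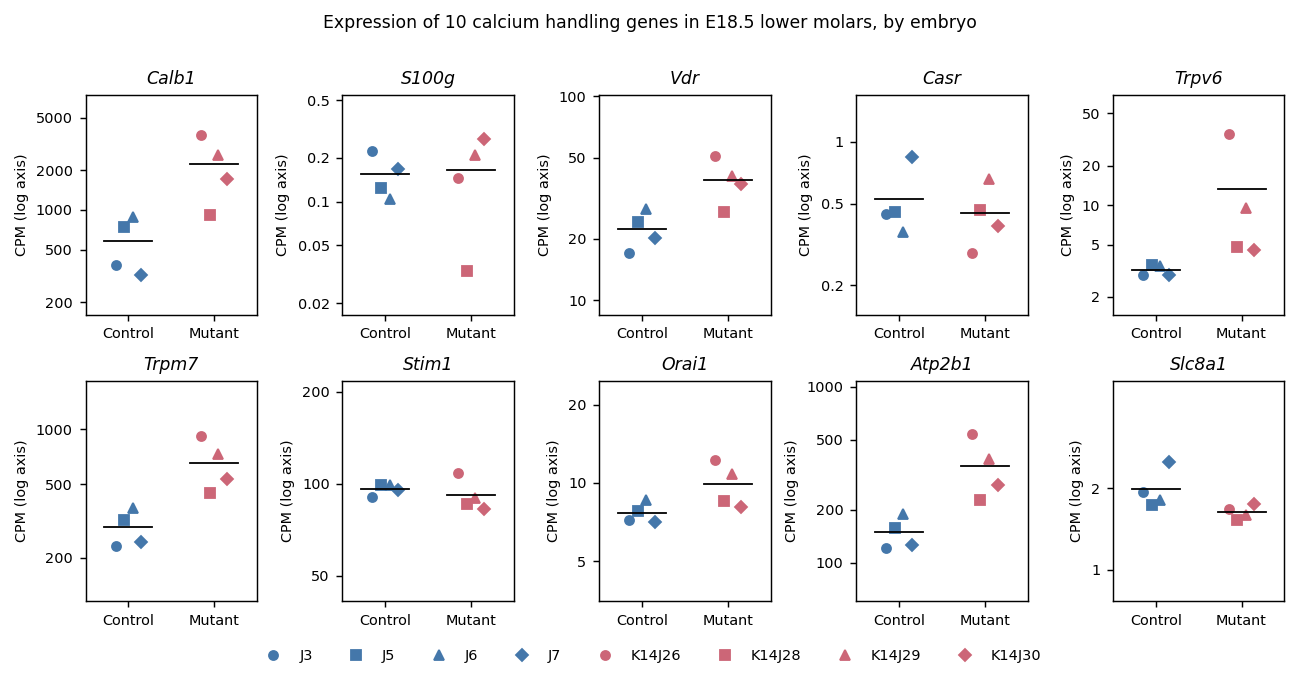
Levels of the 10 genes by embryo in TMM-scaled CPM on a log axis, Control in blue and Mutant in red, with a symbol for each embryo and a bar at the mean of each group. All 4 Mutant embryos lay above all 4 Control embryos for Calb1, Trpv6, Trpm7 and Atp2b1, while Stim1, Casr, S100g, Orai1, Vdr and Slc8a1 overlapped.

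Promoter sequence is shown for 4 of the members whose estimates were higher in Mutant, so that their start sites can be set side by side. RefSeq promoters (GRCm38.p6, 250 bases before to 50 after the start site) matched 9 of the 10 members. Calb1 was the member without a match, so its promoter was not read. In the sequences below, written 5′ to 3′ on the strand of the gene, capitals mark AGGTCA or AGTTCA, the hexamers that the vitamin D receptor binds in pairs, and CACGTG, the palindromic E-box, each read on both strands. CACGTG was added after these sequences had been seen.
Vdr: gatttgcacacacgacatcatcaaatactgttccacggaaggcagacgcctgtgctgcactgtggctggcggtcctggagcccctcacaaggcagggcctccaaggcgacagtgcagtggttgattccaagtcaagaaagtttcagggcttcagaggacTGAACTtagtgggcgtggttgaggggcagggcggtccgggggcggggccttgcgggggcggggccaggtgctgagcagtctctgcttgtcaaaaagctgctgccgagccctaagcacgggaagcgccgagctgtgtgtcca
Trpv6: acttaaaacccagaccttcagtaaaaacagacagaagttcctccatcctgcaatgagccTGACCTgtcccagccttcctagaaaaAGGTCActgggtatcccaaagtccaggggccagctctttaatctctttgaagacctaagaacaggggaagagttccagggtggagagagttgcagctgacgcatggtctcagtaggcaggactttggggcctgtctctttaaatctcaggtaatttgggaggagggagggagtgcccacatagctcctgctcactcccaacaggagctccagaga
Trpm7: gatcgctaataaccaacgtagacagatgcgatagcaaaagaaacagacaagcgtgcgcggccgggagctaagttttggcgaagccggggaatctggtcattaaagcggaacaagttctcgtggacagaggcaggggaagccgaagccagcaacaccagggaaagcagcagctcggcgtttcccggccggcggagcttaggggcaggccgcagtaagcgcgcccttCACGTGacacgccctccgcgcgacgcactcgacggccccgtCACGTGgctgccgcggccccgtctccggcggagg
Atp2b1: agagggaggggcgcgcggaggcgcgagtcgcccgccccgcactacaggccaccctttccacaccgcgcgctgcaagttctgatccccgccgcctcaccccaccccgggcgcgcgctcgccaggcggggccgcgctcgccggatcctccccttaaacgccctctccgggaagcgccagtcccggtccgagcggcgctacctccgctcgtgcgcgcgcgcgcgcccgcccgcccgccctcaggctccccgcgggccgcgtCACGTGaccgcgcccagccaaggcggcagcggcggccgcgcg
The Vdr window (chr15:97908247-97908546, minus strand) held 1 AGTTCA and was 61.3% G or C. The Trpv6 window (chr6:41636356-41636655, minus strand) held 2 AGGTCA matches, 1 on each strand, and was 51.3% G or C. The Trpm7 window (chr2:126876212-126876511, minus strand) held 2 CACGTG, and the Atp2b1 window (chr10:98914392-98914691, plus strand, the upstream of its 2 RefSeq start sites) held 1. These windows were 63.7% and 79.3% G or C. The other Atp2b1 window and the windows of Orai1, Stim1, Casr and Slc8a1, which are not printed, held none of the marked motifs. Of 32841 RefSeq promoters of this length, 16.3% held AGGTCA, 13.99% held AGTTCA and 7.15% held CACGTG. S100g, which did not pass the count filter, also held 2 AGGTCA matches. The RBPJ core GTGGGAA, bound by the Notch effector, was absent from the 4 windows, had 1 match in the Slc8a1 window, which is not printed, and was present in 6.38% of all promoters. A match is a description of letters and not a measured binding site.

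Calb1 was the most abundant of the 10 genes per length of transcript. It encodes a calbindin that binds calcium in ameloblasts and in other calcium-transporting epithelia, and it lies at chr4:15881264-15908064 (plus strand, GRCm38, ENSMUSG00000028222). In Control it stood at 386 CPM in J3, 740 in J5, 877 in J6 and 322 in J7. In Mutant it stood at 3712 CPM in K14J26, 920 in K14J28, 2583 in K14J29 and 1720 in K14J30. Every Mutant embryo exceeded every Control embryo, although K14J28 lay only just above J6. The mean rose from 582 ± 269 CPM (SD, n = 4) to 2234 ± 1197 CPM (SD, n = 4), a 3.84-fold difference with a log2 fold change of 1.94 ± 0.45 (SE), a 95% interval of 0.93 to 2.96 and an adjusted p = 0.0247. The highest Mutant embryo had 4.03 times the level of the lowest, and the highest Control embryo 2.72 times. The direction held in each of the 8 fits that left out 1 embryo, with estimates from 1.58 to 2.21, but the call was lost without J3, J5, J7 or K14J29, the adjusted p reaching 0.0748.

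S100g, the other calbindin, was at the limit of detection. It is encoded on the minus strand at chrX:162961992-162964599 (ENSMUSG00000040808), inside the span of Ctps2 on the opposite strand, with 0 exon bases shared. It had 4, 3, 2 and 5 counts in J3, J5, J6 and J7, and 3, 1, 6 and 7 counts in K14J26, K14J28, K14J29 and K14J30. These are 0.033 to 0.271 CPM, around the level of 3 counts, and no difference between groups was detectable at this depth. The calcium-binding pair therefore stood far apart in Control molars, with Calb1 at 120 ± 55.6 and S100g at 0.322 ± 0.109 RPKM, that is CPM per kilobase of exon (mean ± SD, n = 4).

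Vdr, the nuclear receptor for active vitamin D, rose by less than Calb1. It lies at chr15:97854425-97910630 (minus strand, ENSMUSG00000022479), and the RefSeq start site printed above falls inside this span. Its levels were 16.99, 24.3, 28.1 and 20.1 CPM in J3, J5, J6 and J7, and 50.7, 27.0, 40.4 and 36.9 CPM in K14J26, K14J28, K14J29 and K14J30. The groups overlapped, since K14J28 was below J6. The mean was 22.4 ± 4.83 CPM (SD, n = 4) in Control and 38.8 ± 9.79 CPM (SD, n = 4) in Mutant, a 1.73-fold difference, with a log2 fold change of 0.79 ± 0.20 (SE) and an adjusted p = 0.0323. Estimates with 1 embryo left out ran from 0.64 to 0.93, and the call was lost without J3, J5, J7, K14J29 or K14J30, the adjusted p reaching 0.0948.

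Casr, the cell-surface receptor that senses extracellular calcium, was counted at a very low level and did not pass the test. It lies at chr16:36493696-36562141 (minus strand, ENSMUSG00000051980). It had 8, 11, 7 and 25 counts in the Control embryos J3, J5, J6 and J7, and 6, 14, 19 and 10 counts in K14J26, K14J28, K14J29 and K14J30. The 2 groups overlapped, and J7 had the highest level of all. The log2 fold change was -0.24 ± 0.37 (SE) with a 95% interval of -1.07 to 0.59 and an adjusted p = 0.678. Without J7 the estimate was 0.11, so its sign rested on that embryo.

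Trpv6 was higher in every Mutant embryo than in any Control embryo, but just missed the threshold. It encodes a calcium-selective channel of the apical membrane in absorbing epithelia and lies at chr6:41620624-41636405 (minus strand, ENSMUSG00000029868). Control embryos were tightly grouped at 2.93, 3.50, 3.42 and 2.94 CPM in J3, J5, J6 and J7. In Mutant it was at 34.5 CPM in K14J26, 4.82 in K14J28, 9.46 in K14J29 and 4.58 in K14J30. K14J26 lay far above the rest, with 7.55 times the lowest Mutant level. The means were 3.20 ± 0.306 CPM (SD, n = 4) and 13.3 ± 14.3 CPM (SD, n = 4). The log2 fold change was 2.05 ± 0.63 (SE), its 95% interval lay above 0, and the adjusted p = 0.0534 was just above the threshold of 0.05. Without K14J26 the estimate was smaller, 0.98, while the adjusted p was 0.0300. Without K14J28 it was 2.32 with an adjusted p of 0.0223, and without K14J30 it was 2.34 with an adjusted p of 0.0407. The adjusted p over all its alternatives ran from 0.0190 to 0.263.

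Trpm7 rose in Mutant with the smallest adjusted p of the 9 tested members. It encodes a magnesium- and calcium-permeable channel fused to a protein kinase and lies at chr2:126791565-126876230 (minus strand, ENSMUSG00000027365). Its levels were 232, 319, 374 and 243 CPM in J3, J5, J6 and J7, and 914, 452, 733 and 533 CPM in K14J26, K14J28, K14J29 and K14J30. No Mutant embryo fell within the Control range. The mean went from 292 ± 66.8 CPM (SD, n = 4) to 658 ± 207 CPM (SD, n = 4), a 2.25-fold difference. The log2 fold change was 1.17 ± 0.23 (SE), with a 95% interval of 0.65 to 1.70 and an adjusted p = 0.0167. Leaving out 1 embryo gave 0.97 to 1.31, and the call was lost without J3, J7 or K14J29, the adjusted p reaching 0.0581.

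Stim1 and Orai1 form the store-operated entry pathway, with Stim1 sensing calcium in the endoplasmic reticulum and Orai1 forming the pore in the plasma membrane. Stim1 (chr7:102267806-102437319, plus strand, ENSMUSG00000030987) was at 90.5, 98.7, 98.9 and 95.0 CPM in J3, J5, J6 and J7, and at 108, 85.7, 89.6 and 82.5 CPM in K14J26, K14J28, K14J29 and K14J30. The groups overlapped. Its log2 fold change was -0.07 ± 0.09 (SE) with an adjusted p = 0.627, and the 95% interval of -0.26 to 0.13 bounds any difference in either direction. Orai1 (chr5:123015074-123030456, plus strand, ENSMUSG00000049686) was at 7.19, 7.79, 8.61 and 7.06 CPM in J3, J5, J6 and J7, and at 12.3, 8.55, 10.8 and 8.11 CPM in K14J26, K14J28, K14J29 and K14J30. K14J26 and K14J29 exceeded every Control embryo and the other 2 did not. Its log2 fold change was 0.38 ± 0.15 (SE), with a 95% interval of 0.03 to 0.72, an unadjusted p = 0.0343 and an adjusted p = 0.114. Its exons share 7 bases with Gm2479, an antisense transcript, and the library kit did not mark strand.

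Atp2b1, a calcium pump of the plasma membrane, moved much as Trpm7 did. It lies at chr10:98914406-99026143 (plus strand, ENSMUSG00000019943). It was at 121, 157, 190 and 127 CPM in J3, J5, J6 and J7, and at 537, 226, 385 and 275 CPM in K14J26, K14J28, K14J29 and K14J30. All Mutant embryos exceeded all Control embryos. The mean rose from 149 ± 31.8 CPM (SD, n = 4) to 356 ± 138 CPM (SD, n = 4), a 2.39-fold difference, with a log2 fold change of 1.26 ± 0.26 (SE), a 95% interval of 0.67 to 1.85 and an adjusted p = 0.0184. Leaving out 1 embryo gave 0.99 to 1.42, and the call was lost without J3, J5, J7 or K14J29, the adjusted p reaching 0.0643.

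Slc8a1, the sodium-calcium exchanger known from heart muscle, was low and did not pass the test. It lies at chr17:81373105-81738377 (minus strand, ENSMUSG00000054640), where 296 of its exon bases are shared with an antisense transcript. Control embryos were at 1.94, 1.73, 1.81 and 2.498 CPM in J3, J5, J6 and J7, and Mutant embryos at 1.68, 1.53, 1.59 and 1.75 CPM in K14J26, K14J28, K14J29 and K14J30. The groups overlapped. The log2 fold change was -0.29 ± 0.18 (SE) with a 95% interval of -0.70 to 0.11 and an adjusted p = 0.277. The 2 extruders thus had estimates of opposite sign, and a difference between their estimates was not tested.

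**Figure D2:**
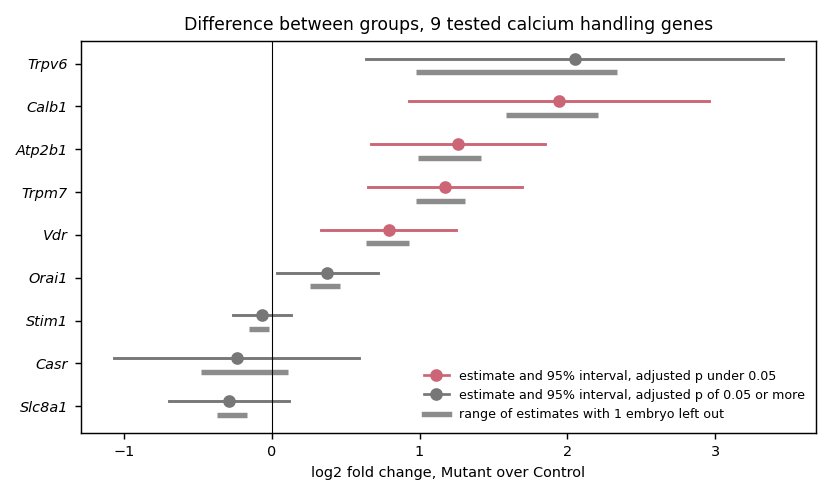
Log2 fold change of Mutant over Control for the 9 tested genes, with 95% intervals (red for an adjusted p under 0.05, grey otherwise) and grey bars for the range of estimates with 1 embryo left out. Calb1 at 1.94, Atp2b1 at 1.26, Trpm7 at 1.17 and Vdr at 0.79 passed the threshold, and Trpv6 at 2.05 had the widest interval.

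Per length of exon, the order of Control levels was Calb1 at 120 ± 55.6 RPKM (SD, n = 4), Trpm7 at 25.8 ± 5.90, Atp2b1 at 9.77 ± 2.09, Stim1 at 9.23 ± 0.382, Vdr at 3.96 ± 0.854, Orai1 at 3.34 ± 0.308, Trpv6 at 0.813 ± 0.0778, S100g at 0.322 ± 0.109, Casr at 0.111 ± 0.0458 and Slc8a1 at 0.106 ± 0.0184. Neighbours in this order lay within their spread for Atp2b1 and Stim1, for Vdr and Orai1, and for Casr and Slc8a1. In Mutant the order was Calb1 at 461 ± 247 RPKM (SD, n = 4), Trpm7 at 58.2 ± 18.3, Atp2b1 at 23.4 ± 9.08, Stim1 at 8.83 ± 1.12, Vdr at 6.86 ± 1.73, Orai1 at 4.33 ± 0.860, Trpv6 at 3.39 ± 3.63, S100g at 0.342 ± 0.212, Casr at 0.0954 ± 0.0332 and Slc8a1 at 0.0871 ± 0.00505. The ranking of the 10 genes by mean was the same in both groups. In Mutant, Stim1 and Vdr, Vdr and Orai1, Orai1 and Trpv6, and Casr and Slc8a1 lay within their spread. Atp2b1 stood above Stim1 by more than it. Trpv6 and S100g lay within the SD of Trpv6, which K14J26 widened, but their Mutant embryos did not overlap per length. The lowest for Trpv6 was 4.58 CPM over 3936 exon bases, and the highest for S100g was 0.271 CPM over 480. These levels take the union of a gene's annotated exons as its length, whichever transcripts the tooth uses.

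The members that rose shared an order of embryos. Calb1, Trpm7, Atp2b1 and Vdr were each highest in K14J26, then K14J29, then K14J30, and lowest of the Mutant embryos in K14J28. Among Control embryos each was highest in J6 and next in J5. Relative to the Control mean, K14J26 held 6.38 times the Calb1 level, 3.61 times the Atp2b1 level, 3.13 times the Trpm7 level and 2.27 times the Vdr level, and K14J28 held 1.58, 1.52, 1.55 and 1.21 times. Trpv6 and Orai1 were also highest in K14J26 and then K14J29, but had K14J28 above K14J30. Over the 8 embryos the Pearson correlation of log2 CPM was 0.997 between Trpm7 and Atp2b1, 0.987 between Calb1 and Trpm7, 0.98 between Calb1 and Vdr and 0.155 between Calb1 and Stim1. These coefficients describe 8 points that share the group difference and the library composition.

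**Figure D3:**
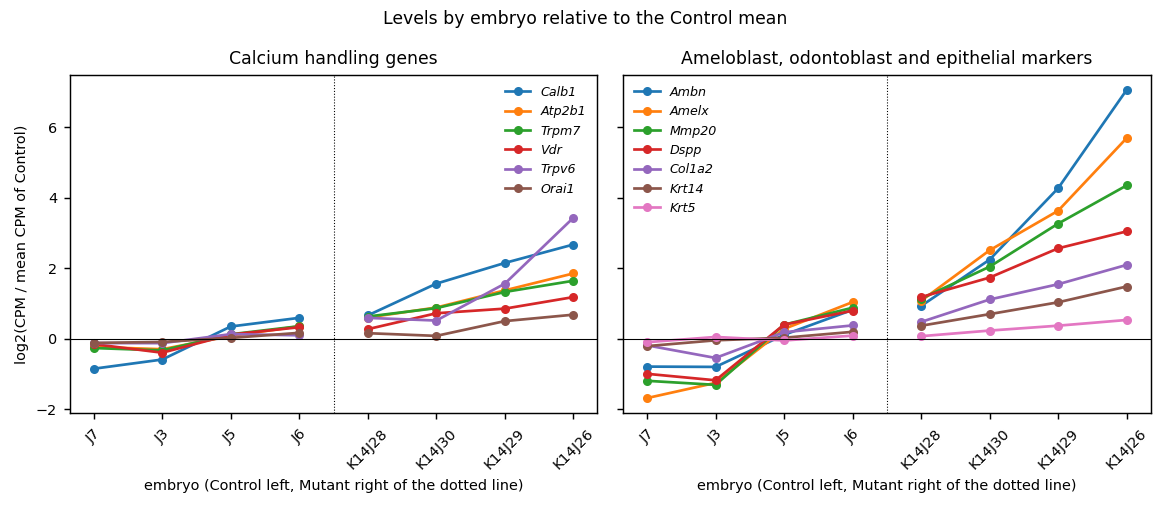
Log2 of the ratio of each embryo's CPM to the Control mean, for 6 calcium handling genes on the left and 7 tooth markers on the right, with embryos placed by their Calb1 level within each group. K14J26 stood highest in both panels, with Amelx at 51.8 and Calb1 at 6.38 times the Control mean.

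Most markers of the mineralising cells took the same order. Amelx and Ambn encode enamel matrix proteins, Enam encodes enamelin, Mmp20 the protease of enamel matrix, and Dspp a dentin matrix protein. Amelx, Ambn, Enam, Mmp20, Klk4, Dspp, Col1a1, Col1a2 and Nes, and the epithelial markers Krt14, Krt5 and Cdh1, ran from K14J26 down through K14J29 and K14J30 to K14J28, the order of Calb1. In K14J26 and K14J28, Amelx held 51.8 and 2.11 times its Control mean, and Dspp held 8.26 and 2.27 times. Odam, an ameloblast-associated gene, did not take this order, at 2.14 times in K14J26 and 2.62 times in K14J28. Amtn, Dmp1, Krt17 and Epcam did not take it either. Dmp1, a dentin and bone matrix gene, was at 254, 190, 392 and 372 CPM in K14J26, K14J28, K14J29 and K14J30, and Epcam, an epithelial adhesion gene, was lowest in K14J26 at 113 CPM and highest in K14J30 at 194 CPM. The summed level of 7 ameloblast markers, led by Amelx, was 711 to 3421 CPM in Control and 3957 to 114675 CPM in Mutant, and 5 of the 6 tested were called higher. The summed level of 5 odontoblast markers, led by Col1a1, was 6261 to 11728 CPM in Control and 11322 to 35140 CPM in Mutant. Here 4 of 5 were called higher. The share of all genes tested that were called higher was 9.52%. Amtn, a marker of later ameloblasts, was near 0 in Control with a mean of 0.0856 CPM. The part of these cells in the differences of Calb1, Trpm7, Atp2b1 and Vdr was not tested.

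Markers of the other cell types that a dissected tooth could hold were read in the same way. The shares of all genes tested were 9.52% higher and 6.61% lower by edgeR, and 13.1% and 10% by DESeq2. At an unadjusted p under 0.05 by edgeR they were 19.1% and 15.7%. The 5 dental epithelium markers, led by Krt5, summed to 4921 to 5694 CPM in Control and 5657 to 8337 CPM in Mutant, and Krt14 was the 1 of 5 called higher. Epcam was lower, from a mean of 234 to 164 CPM, with groups that did not overlap, a log2 fold change of -0.51 ± 0.16 (SE) and an adjusted p = 0.0527 by edgeR, so it was not called. DESeq2 called 3 of the 5 higher and 1 lower, the counts also found by edgeR at an unadjusted p under 0.05. The 6 mesenchyme markers, led by Col3a1, summed to 2694 to 3285 CPM in Control and 2610 to 2853 CPM in Mutant, with Pdgfra called higher and Msx1 and Twist1 lower. Of 5 osteoblast markers, led by Alpl, Bglap and Sp7 were called higher, with sums of 995 to 1242 CPM in Control and 1203 to 1391 CPM in Mutant. The 5 endothelial markers, led by Cdh5, summed to 265 to 295 CPM and 216 to 267 CPM, with 0 called by edgeR and 2 lower both at an unadjusted p under 0.05 and by DESeq2. The 6 red blood cell markers, led by Hbb-bs, summed to 889 to 1325 CPM and 683 to 1667 CPM, and 0 were called by edgeR, by DESeq2 or at an unadjusted p under 0.05. Of 4 neuron and Schwann cell markers, Tubb3, which led the list, was called higher, with sums of 147 to 180 CPM and 163 to 255 CPM that were mostly Tubb3. DESeq2 called 2 of these 4 higher and 1 lower, the counts also found by edgeR at an unadjusted p under 0.05, and the lower was Nefl, a neurofilament gene, at 0.725 CPM in Control and 0.269 CPM in Mutant. Keratinised epithelium markers, led by Krt13, summed to 21.5 to 141 CPM and 19.7 to 683 CPM, with 0 called by edgeR, by DESeq2 or at an unadjusted p under 0.05, and K14J28 was the library at 683 CPM. The part of these cells in the members' values was not tested.

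The 2 Control libraries with muscle transcripts, J6 and J7, were left out to see how the members' calls depended on them. Without them, 2 Control embryos faced 4 Mutant embryos. edgeR then called 0 of the 9 members at an adjusted p under 0.05, with 4 higher at an unadjusted p under 0.05, as were 12% of all genes in that fit, and it called 3 of all genes higher and 4 lower. The estimates were as large as before, 1.99 for Calb1 (adjusted p = 0.153), 1.35 for Atp2b1 (adjusted p = 0.144), 1.25 for Trpm7 (adjusted p = 0.135) and 0.90 for Vdr (adjusted p = 0.153). Over all alternatives the adjusted p ran from 0.00204 to 0.153 for Calb1, from 3.12e-05 to 0.144 for Atp2b1, from 1.74e-05 to 0.135 for Trpm7 and from 0.00231 to 0.153 for Vdr. This comparison was chosen after the data had been seen.

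For the members that rose, genes near in pattern over the 8 embryos were found by Pearson correlation of log2 CPM. Calb1 was nearest to Ctnna2 (0.998), Coro2a (0.997) and Pawr (0.996). Trpm7 was nearest to Rasa3, Plod2 and Atp2b1, each at 0.997. Atp2b1 was near to St8sia1 (0.998) and Rims3 (0.997). Vdr was nearest to Col11a2 (0.996), Avpi1 (0.996) and Naglu (0.995). Plod2, which encodes a collagen lysyl hydroxylase, went from 282 to 888 CPM, and Col11a2, a fibrillar collagen gene, from 93.4 to 405 CPM. The likeness is of 8 values only.

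A wider list of 71 calcium genes was read for comparison, of which 67 were tested. It held 6 genes called higher and 6 called lower, where 9.52% of all genes tested were called higher and 6.61% lower. Its median log2 fold change was 0.03, against 0.01 for all genes tested, so the list as a whole stood near the background. DESeq2 called 10 higher and 9 lower, where it called 13.1% of all genes tested higher and 10% lower. The genes that differed are given by role.

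**Figure D4:**
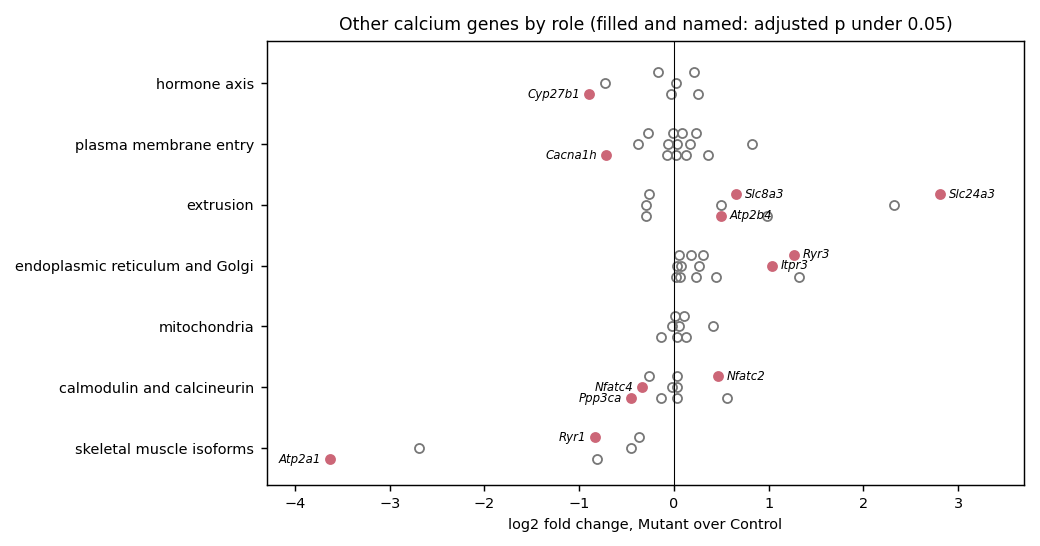
Log2 fold change of Mutant over Control for the 67 tested genes of the wider calcium list, 1 row for each role, filled and named where the adjusted p was under 0.05. Slc24a3 at 2.81 was the highest and Atp2a1 at -3.64 the lowest.

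Extrusion genes held 3 of the 6 calls towards higher expression, out of 9 tested, and 0 were lower, beside 9.52% and 6.61% of all genes tested. Slc24a3, a potassium-dependent sodium-calcium exchanger, was at 3.21, 7.05, 8.35 and 4.12 CPM in J3, J5, J6 and J7, and at 98.4, 9.05, 34.1 and 17.8 CPM in K14J26, K14J28, K14J29 and K14J30. Every Mutant embryo was above every Control embryo, in the order of Calb1. Its log2 fold change was 2.81 ± 0.69 (SE), with an adjusted p = 0.0295, and leaving out 1 embryo gave 1.84 to 3.13, the lowest without K14J26. Slc8a3, a sodium-calcium exchanger, rose from 23.1 ± 4.39 to 36.3 ± 3.40 CPM (SD, n = 4), with a log2 fold change of 0.65 ± 0.13 (SE) and an adjusted p = 0.0171. Its highest Mutant embryo was K14J29 and its lowest K14J26, an order unlike that of Calb1. Atp2b4, another plasma membrane calcium pump, rose from 145 ± 5.22 to 204 ± 42.1 CPM (SD, n = 4), with a log2 fold change of 0.49 ± 0.13 (SE) and an adjusted p = 0.0325. Slc24a4, the exchanger used by ameloblasts of the maturation stage and picked out here after its values were seen, was at 0 to 0.206 CPM in Control and 0.0388 to 1.20 CPM in Mutant, and its adjusted p was 0.111.

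Among 13 tested genes of the endoplasmic reticulum and Golgi, 2 were called higher and 0 lower, beside 9.52% and 6.61% of all genes tested, and 4 were higher at an unadjusted p under 0.05, beside 19.1%. Itpr3, a receptor channel that releases calcium in response to inositol trisphosphate, was at 162, 174, 195 and 170 CPM in J3, J5, J6 and J7, and at 546, 225, 339 and 322 CPM in K14J26, K14J28, K14J29 and K14J30. The groups did not overlap. Its log2 fold change was 1.03 ± 0.22 (SE), with an adjusted p = 0.0209. Ryr3, a ryanodine receptor, rose from 3.25 ± 0.808 to 7.84 ± 2.54 CPM (SD, n = 4), with a log2 fold change of 1.27 ± 0.26 (SE) and an adjusted p = 0.0172. Both took the embryo order of Calb1. The median log2 fold change of the 13 was 0.24, against 0.01 for all genes tested.

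The hormone axis, entry channels and mitochondria held 2 calls among their tested genes, each towards lower expression. Of all genes tested, 9.52% were called higher and 6.61% lower. In the hormone axis, Cyp27b1, which makes active vitamin D, was the 1 of 7 tested genes called, and it fell by 0.90 on the log2 scale (SE 0.23, adjusted p = 0.0318) from a mean of 2.30 to 1.24 CPM. Vdr and Cyp27b1 thus moved in opposite directions. Among 14 tested entry genes, Cacna1h, a low-voltage-activated calcium channel, fell by 0.72 (SE 0.17, adjusted p = 0.0282) from 16.0 to 9.76 CPM. Without J6 and J7, its 2 highest Control embryos, its estimate was -0.44. Of the entry genes, 0 were called higher by edgeR or by DESeq2, where DESeq2 called 13.1% of all genes tested higher. At an unadjusted p under 0.05 by edgeR, 3 were higher, beside 19.1% of all genes tested. Trpv5, the close relative of Trpv6, had at most 1 count in any library. Of 8 mitochondrial genes, edgeR called 0, with 1 higher at an unadjusted p under 0.05 and 1 by DESeq2. The shares of all genes tested were 19.1% and 13.1%. Micu2, the most abundant, was at 90.9 CPM in Control and 91.7 CPM in Mutant.

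Of 10 tested genes of calmodulin, calcineurin and their NFAT targets, 1 was called higher and 2 lower. Among all genes tested the shares were 9.52% and 6.61%. Ppp3ca, a catalytic subunit of calcineurin, was at 175, 159, 164 and 178 CPM in J3, J5, J6 and J7, and at 123, 128, 126 and 116 CPM in K14J26, K14J28, K14J29 and K14J30. The groups did not overlap and neither group was widely spread. It fell by 0.45 on the log2 scale (SE 0.06, adjusted p = 0.00695), and it was the 1 named calcium gene still called in each of the 8 fits that left out 1 embryo. Ppp3cb, another catalytic subunit, had an estimate of 0.03 and was not called (adjusted p = 0.684). Nfatc4 fell by 0.33 (SE 0.07, adjusted p = 0.0187), and Nfatc2 rose by 0.46 (SE 0.12, adjusted p = 0.0308). Of the cytosolic buffers, neither Calb2 nor Pvalb passed the count filter.

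Of 6 genes of skeletal muscle calcium release, 2 were called lower and 0 higher, beside 6.61% and 9.52% of all genes tested. Atp2a1, the calcium pump of fast muscle, was at 27.6 CPM in J6 and 8.64 CPM in J7, and between 0.336 and 1.14 CPM in the other 6 embryos. Its groups overlapped, its log2 fold change was -3.64 ± 1.08 (SE) with an adjusted p = 0.0492, and without J6 and J7 the estimate was -0.28. Ryr1, the ryanodine receptor of skeletal muscle, was at 2.57 ± 0.743 CPM in Control and 1.44 ± 0.190 CPM in Mutant (SD, n = 4), with a log2 fold change of -0.83 ± 0.24 (SE) and an adjusted p = 0.0448, and without J6 and J7 the estimate was -0.42. Muscle markers were high in the same 2 libraries, and their part in these values was not tested. Of the 12 wider list genes called, the 11 other than Ppp3ca lost their call without J3, without J7 and without K14J29, with adjusted p values of up to 0.125 over the fits that left out 1 embryo. Without both J6 and J7 none of the 12 was called, Ppp3ca having an estimate of -0.44 and an adjusted p of 0.124. With the muscle genes left out, the wider list held 6 genes called higher and 4 called lower of 61 tested. Among all genes tested, 9.52% were called higher and 6.61% lower.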

How the data were processed

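RNA from the pooled left and right lower molars of each of 8 embryos was made into TruSeq libraries, which do not mark strand, and read single-end. The authors trimmed reads with Trimmomatic and aligned them to GRCm38 with STAR. They deposited raw counts per Ensembl gene, 1 table per embryo. The processing notes name featureCounts and GRCm38.p3, the study's methods GenomicRanges.

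Symbols and positions came from GENCODE M21 (GRCm38), which held 42548 of the 43629 identifiers. Counts were tested with edgeR 4.0.16 (R 4.3.3): TMM scaling, a filter that kept genes reaching 10 counts in 2 or more embryos of a group, the quasi-likelihood test without covariates, and Benjamini-Hochberg adjustment over all 17129 genes tested, called at an adjusted p under 0.05. Fold changes are Mutant over Control, intervals are 95%, and CPM use TMM-scaled library sizes. RPKM divide CPM by exon length. All p-values measure the spread between embryos. Depth, 17327224 to 29792467 counts, makes 3 counts the detection floor, which covers counting error only. On simulated counts, tested over 16796 genes, 97.9% of 4-fold and 75% of 2-fold changes were recovered.

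All 10 members are named. Of the wider lists, called genes are named (at most 4 per direction and role, or the most abundant where none was called), and the most abundant of each marker list. Members and lists were chosen with earlier results of these data known. Alternatives were other scalings, other count filters, DESeq2 1.42.0, the embryos with Xist near 0 alone, each embryo left out, and 2 Control embryos left out. Of 72 wider list symbols, 1 was not matched. For the members called, the 3 genes nearest in pattern were to be named. Some items are not reported here.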

Additional observations from a re-analysis of the deposited data

Results flagged for a closer look

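Trpv6 in K14J26 stood apart from the other Mutant embryos. It was at 34.5 CPM, where the other 3 lay between 4.58 and 9.46 CPM, and its gap to the nearest of them was 0.837 of the range of the group, above Dixon's 95% critical value for 4 samples. Its log2 fold change was 2.05 with all embryos and 0.98 without K14J26.

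Groups of 4 read in this way numbered 160, for the members, the named calcium genes, Slc24a4, Jag1 and all marker genes reported here. Each held an embryo above 3 counts. Chance passes about 1 in 20 such groups where values are normal and independent. Here gaps were taken on CPM and not on log2 CPM, and the groups share embryos, so that rate is not exact. Across the 160 groups, 15 values lay past the critical value. In K14J26 these were Trpv6, Ambn at 31542 CPM (others 450 to 4563) and Amtn at 4.13 CPM (others 0.116 to 0.208). In K14J28 they were the keratinised epithelium markers Krt4 at 251 CPM, Krt13 at 397 CPM and Lor at 10.3 CPM, and Ibsp at 447 CPM, all above the other Mutant embryos, with Vim at 745 CPM and Tubb3 at 160.0 CPM below them. Cdh5 was low in K14J30 at 51.5 CPM and Kdr high in K14J29 at 69.1 CPM. Among Control embryos, J7 was high for Pecam1 at 77.7 CPM and Tek at 30.3 CPM, and J5 for Hbb-bt at 158 CPM and Alas2 at 27.4 CPM. Among the members, Trpv6 was the only one past it.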

How the results depend on the processing

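Calb1, Vdr, Trpm7 and Atp2b1 were higher in Mutant under every alternative run. They kept their call under each scaling, filter and DESeq2. The counts of calls moved more. With 1 embryo left out, genes called higher (1631) ranged from 250 to 2479, genes called lower (1133) from 170 to 1845, members called higher (4) from 0 to 5, wider list genes called higher (6) from 0 to 14 and called lower (6) from 1 to 6. The 0 members were without J3, J7 or K14J29, each with 5 members higher at an unadjusted p under 0.05 by edgeR, against 15.2% to 15.9% of all genes, and without J5 there was 1. Over the same fits, Calb1 ran from 1.58 to 2.21, Vdr from 0.64 to 0.93, Trpv6 from 0.98 to 2.34, Trpm7 from 0.97 to 1.31, Atp2b1 from 0.99 to 1.42, Casr from -0.48 to 0.11 and Micu2 from -0.011 to 0.039. Library size alone, which moved the median of all genes by -0.099, gave 864 genes higher and Micu2 at -0.088. DESeq2 gave 1718 genes lower and 10 wider list genes higher. The embryos with Xist near 0 alone gave 741 genes lower and 2 wider list genes lower. Without J6 and J7, chosen after seeing the data, 3 genes were higher and 4 lower, with 0 members and 0 wider list genes called higher or lower by edgeR (at an unadjusted p under 0.05, 4 members were higher, and 7 list genes higher and 4 lower of 66, against 12% and 8.74% of all genes). Estimates were then 1.99 for Calb1, 0.90 for Vdr, 1.25 for Trpm7, 1.35 for Atp2b1, 0.025 for Casr and -0.013 for Micu2. Trpv6 passed the threshold without a count filter (2.03), under DESeq2 (2.06) and in the embryos with Xist near 0 (2.60). The cause was not tested. No paired analysis was possible because the labels give no replicate number shared between groups. Depth limits S100g and Casr, which had at most 7 and 25 counts.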
